A study of Mus musculus with 6 samples.

Results

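Interferon response genes are the transcripts that cells switch on when an interferon reaches them, and 37 such genes were chosen by symbol from the 54838 gene identifiers of a count table of mouse B cells. All 37 symbols were found through GENCODE release M21. The rule that finds them uses gene names and no threshold on values, but the list was drawn up with earlier results of these data known. The comparison asks how these transcripts differ when activated B cells receive Cpd10, a compound labelled as a FOXO1 inhibitor. FOXO1 is a transcription factor that controls B cell development and trafficking.

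The 6 libraries came from mouse splenic B cells sorted as naive from 10 male mice, aged 3 months, that had been immunised with sheep red blood cells 9 days before. Cells of 2 independent experiments were pooled and kept in culture for 5 days. Both groups were stimulated with 80 ng/ml mIL4 (mouse interleukin 4) and 5 µg/ml anti-CD40, signals that stand in for T cell help. For the last 48 hours, from day 3, cultures received 1 µM Cpd10, labelled as a FOXO1 inhibitor (3 libraries), or the solvent DMSO (3 libraries). All libraries therefore share both stimuli, and the pooled cells are described alike for each. No library is assigned to a pool or to an experiment. The labels name no culture or animal behind a replicate letter, so p-values reflect only how far these libraries differ, possibly for technical reasons.

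Type I interferons bind the receptor IFNAR1/IFNAR2, and the kinases JAK1 and TYK2 then act on the factor complex ISGF3, which includes STAT2 and IRF9. ISGF3 binds the interferon-stimulated response element (ISRE) in the promoters of antiviral genes. Interferon gamma acts through gamma-activated sites (GAS) and is the main inducer of the immunity-related GTPases and guanylate-binding proteins. In B cells these pathways are known to act beside antigen receptor and CD40 signals in shaping activation and antibody class.

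Promoter sequence was not read by the rule that finds the members by name. Since ISGF3 binds the ISRE in promoters of antiviral genes, the shares below are still not independent of the choice of members. RefSeq promoter windows (GRCm38.p6, 300 bases, from 250 before to 50 after the annotated start) were at hand for 26 of the 37 members. The ISRE core GAAANNGAAA, searched on both strands, was present in 18 of these 26 members (69.2%), against 1079 of all 27025 genes with a window (3.99%). The GAS core TTCNNNGAA, which is its own reverse complement, was present in 5 of the 26 (19.2%), against 9.55% of all genes. A match describes letters in a window and is not evidence of binding. The windows below belong to the 5 members with the smallest p in the comparison among those with a window; capitals mark ISRE cores, which read as TTTCNNTTTC where they lie on the opposite strand, and overlapping cores run together. None of the 5 windows held a GAS core. The window used for Ifit2, the next member by p among those with a window, held no ISRE core and 1 GAS core.
Gbp2 (chr3:142620413-142620712, plus strand): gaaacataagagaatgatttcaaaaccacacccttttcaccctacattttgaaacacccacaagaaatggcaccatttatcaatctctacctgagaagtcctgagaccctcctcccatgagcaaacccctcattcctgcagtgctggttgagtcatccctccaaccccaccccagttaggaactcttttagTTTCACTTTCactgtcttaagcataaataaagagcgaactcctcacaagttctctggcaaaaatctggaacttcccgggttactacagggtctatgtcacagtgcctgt
Ddx58 (chr4:40239776-40240075, minus strand): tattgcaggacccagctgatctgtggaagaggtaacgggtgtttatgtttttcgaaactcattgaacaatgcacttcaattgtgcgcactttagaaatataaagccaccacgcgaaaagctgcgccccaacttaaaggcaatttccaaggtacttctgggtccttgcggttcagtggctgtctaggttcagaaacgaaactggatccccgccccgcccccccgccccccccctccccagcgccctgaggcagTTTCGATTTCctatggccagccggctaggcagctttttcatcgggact
Gbp3 (chr3:142559794-142560093, plus strand): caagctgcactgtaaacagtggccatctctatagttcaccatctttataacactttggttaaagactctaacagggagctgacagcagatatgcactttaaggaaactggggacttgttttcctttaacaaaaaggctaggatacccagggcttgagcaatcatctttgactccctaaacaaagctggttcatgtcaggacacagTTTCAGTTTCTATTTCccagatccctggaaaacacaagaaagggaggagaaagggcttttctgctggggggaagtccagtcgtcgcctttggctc
Ifit1 (chr19:34640639-34640938, plus strand): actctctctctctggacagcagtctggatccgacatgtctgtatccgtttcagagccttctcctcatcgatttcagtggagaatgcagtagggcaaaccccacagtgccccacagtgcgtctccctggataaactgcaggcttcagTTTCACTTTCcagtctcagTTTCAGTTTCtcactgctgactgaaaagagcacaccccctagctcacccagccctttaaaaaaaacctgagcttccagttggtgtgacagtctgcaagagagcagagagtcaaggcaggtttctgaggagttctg
Isg15 (chr4:156200769-156201068, minus strand): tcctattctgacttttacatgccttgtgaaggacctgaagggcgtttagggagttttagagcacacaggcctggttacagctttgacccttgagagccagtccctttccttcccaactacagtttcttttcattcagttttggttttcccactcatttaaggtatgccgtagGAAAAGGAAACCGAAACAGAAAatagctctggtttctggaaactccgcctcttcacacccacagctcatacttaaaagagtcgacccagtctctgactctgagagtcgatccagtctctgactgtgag
The Isg15 window held 3 overlapping cores, those of Gbp3 and Ifit1 held 2 each, and those of Gbp2 and Ddx58 held 1 each. In Isg15 the cores began 78 to 66 bases before the start, and in Ddx58 the core began 2 bases after it. No window was used for Usp18, Zbp1, Parp9, Parp14, Ifi27l2a, Ly6a, Ly6e, Mx1, Mx2, Oas2 and Rtp4.

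**Figure D1:**
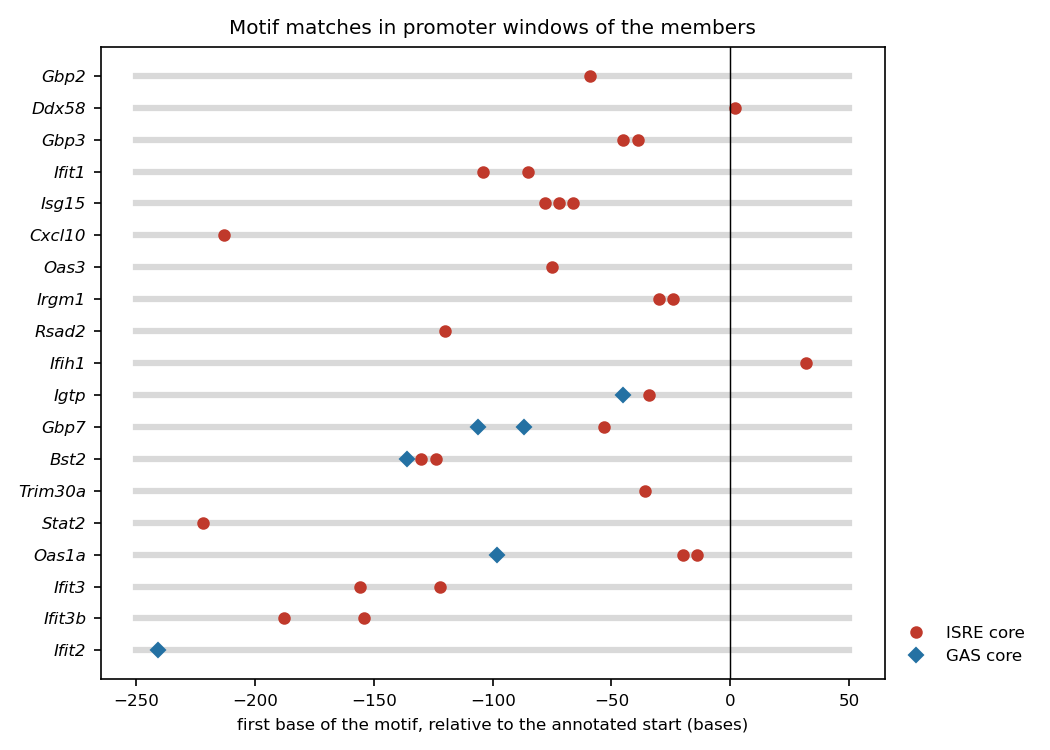
Each grey line is the promoter window of a member with at least 1 match, the x axis gives the first base of the match in bases from the annotated start, red circles are ISRE cores and blue diamonds are GAS cores. ISRE cores were found in 18 members, most of them before the start, and GAS cores in 5.

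Total counts ran from 38110927 to 44859930 in Cpd10 libraries and from 36873204 to 42798114 in DMSO libraries. The libraries also fell into sets that crossed the treatment: Cpd10 A, DMSO A and DMSO C (set 1) lay apart from Cpd10 B, Cpd10 C and DMSO B (set 2) along the first principal component, which held 54.2% of the variance. The set is not in the labels and was taken from the counts of genes outside the interferon lists, so fits with it are exploratory. Cd79a, a B cell marker that encodes a chain of the antigen receptor, was at 598 to 829 CPM (counts scaled to a common library size after TMM normalisation) in Cpd10 libraries and 642 to 815 CPM in DMSO libraries. The 8 B cell markers summed to 10474 to 12911 CPM with Cpd10 and 12550 to 14228 CPM with DMSO, most of it Cd74. Of the 8, 5 had a log2 fold change below 0, beside 50.2% of all tested genes, and 3 above. None had an edgeR adjusted p under 0.05. Cd74 was lower in every Cpd10 library (-0.24, adjusted p = 0.826 by edgeR), and Ms4a1 had -0.65 (adjusted p = 0.560). Marker sums of other cells were below the B cell sums in both groups. The 7 macrophage and monocyte markers summed to 9.78 to 15.5 CPM with Cpd10 and 14.3 to 22.9 CPM with DMSO, with overlap. NK cell markers (6) summed to 2.08 to 10.2 CPM with Cpd10 and 3.69 to 13.3 CPM with DMSO, and neutrophil markers (6) to 0 to 0.176 CPM with Cpd10 and 0 to 0.706 CPM with DMSO. T cell markers (7) summed to 22.0 to 26.9 CPM with Cpd10 and 39.0 to 50.04 CPM with DMSO, a sum made up mostly of the kinase gene Lck, while Cd3e stayed at or below 0.385 CPM in every library. Dendritic cell markers (8, of which Bst2 is also a member here and Tcf4 is made by B cells) summed to 243 to 265 CPM with Cpd10 and 280 to 323 CPM with DMSO. Clec9a, Ncr1, S100a8, S100a9 and Elane had 0 counts in every library. T cell and dendritic sums thus did not overlap between the treatments, and their part in the results below was not tested. Lck alone had a log2 fold change of -0.84 (adjusted p = 0.0786 by edgeR), was called lower by DESeq2 (adjusted p = 0.000699) and fell with the set term by edgeR (-0.76, adjusted p = 0.00216, and 0.106 without Cpd10 A). The macrophage marker Adgre1, which made up most of its list's sum, fell with the set term by edgeR (-0.80, adjusted p = 0.0252). That call was kept in 2 of 6 fits that left out 1 library. The rest of that list was low: Lyz2, Csf1r, Cd14 and Fcgr1 had at most 10 counts in any library. Itgam and Mrc1 had log2 fold changes of -0.35 and 0.29 with the group alone (adjusted p = 0.965 and 0.967 by edgeR). In bulk RNA, fewer cells of a type and less RNA per cell cannot be told apart.

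Activated B cells transcribed the receivers of interferon but hardly any interferon. Of 11 interferon genes examined, 8 had 0 counts in every library, among them Ifnb1, and the other 3 (Ifna2, Ifna4 and Ifng) had at most 18 counts in any library. Ifnar1, the first chain of the type I receptor, was at 89.7 ± 18.9 CPM with Cpd10 and 85.8 ± 11.8 CPM with DMSO (mean ± SD, n = 3 each, as for all such values below). Ifnar2, the second chain, was at 30.5 ± 2.31 CPM with Cpd10 and 29.7 ± 3.08 CPM with DMSO. The interferon gamma receptor chains Ifngr1 and Ifngr2 were at 47.6 ± 4.50 and 102 ± 12.1 CPM with Cpd10, and at 44.4 ± 3.26 and 88.1 ± 5.62 CPM with DMSO. Differences between the groups in these 4 receptor genes were small, with edgeR adjusted p from 0.709 to 0.963 and fold changes of 0.038 to 0.21 on the log2 scale.

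The members differed widely in level, as the plot of all members by library shows. Per kilobase of exon, Ly6e, a lymphocyte surface antigen that affects virus entry, was highest, at 326 CPM per kilobase with Cpd10 and 280 with DMSO. Ifi27l2a, a small interferon-inducible protein gene, followed with 102 (Cpd10) and 81.6 (DMSO) CPM per kilobase, near Ly6a (Sca-1) with 99.9 (Cpd10) and 137 (DMSO). Bst2, Parp9, Trim30a and Stat2 lay at 28.9, 23.1, 18.9 and 17.6 CPM per kilobase with Cpd10, and at 30.6, 19.8, 18.2 and 18.2 with DMSO. Ly6a and Ifi27l2a stood in opposite order in the groups, so their order is not resolved, nor is that of Trim30a against Stat2. By contrast the classical antiviral effectors were low: the IFIT, OAS, MX, Rsad2, Cmpk2, Isg15, Usp18 and Cxcl10 transcripts all averaged under 10 CPM in both groups. Per kilobase the highest of these were Oas1a with Cpd10, at 3.72 CPM, and Isg15 with DMSO, at 7.43 CPM.

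**Figure D2:**
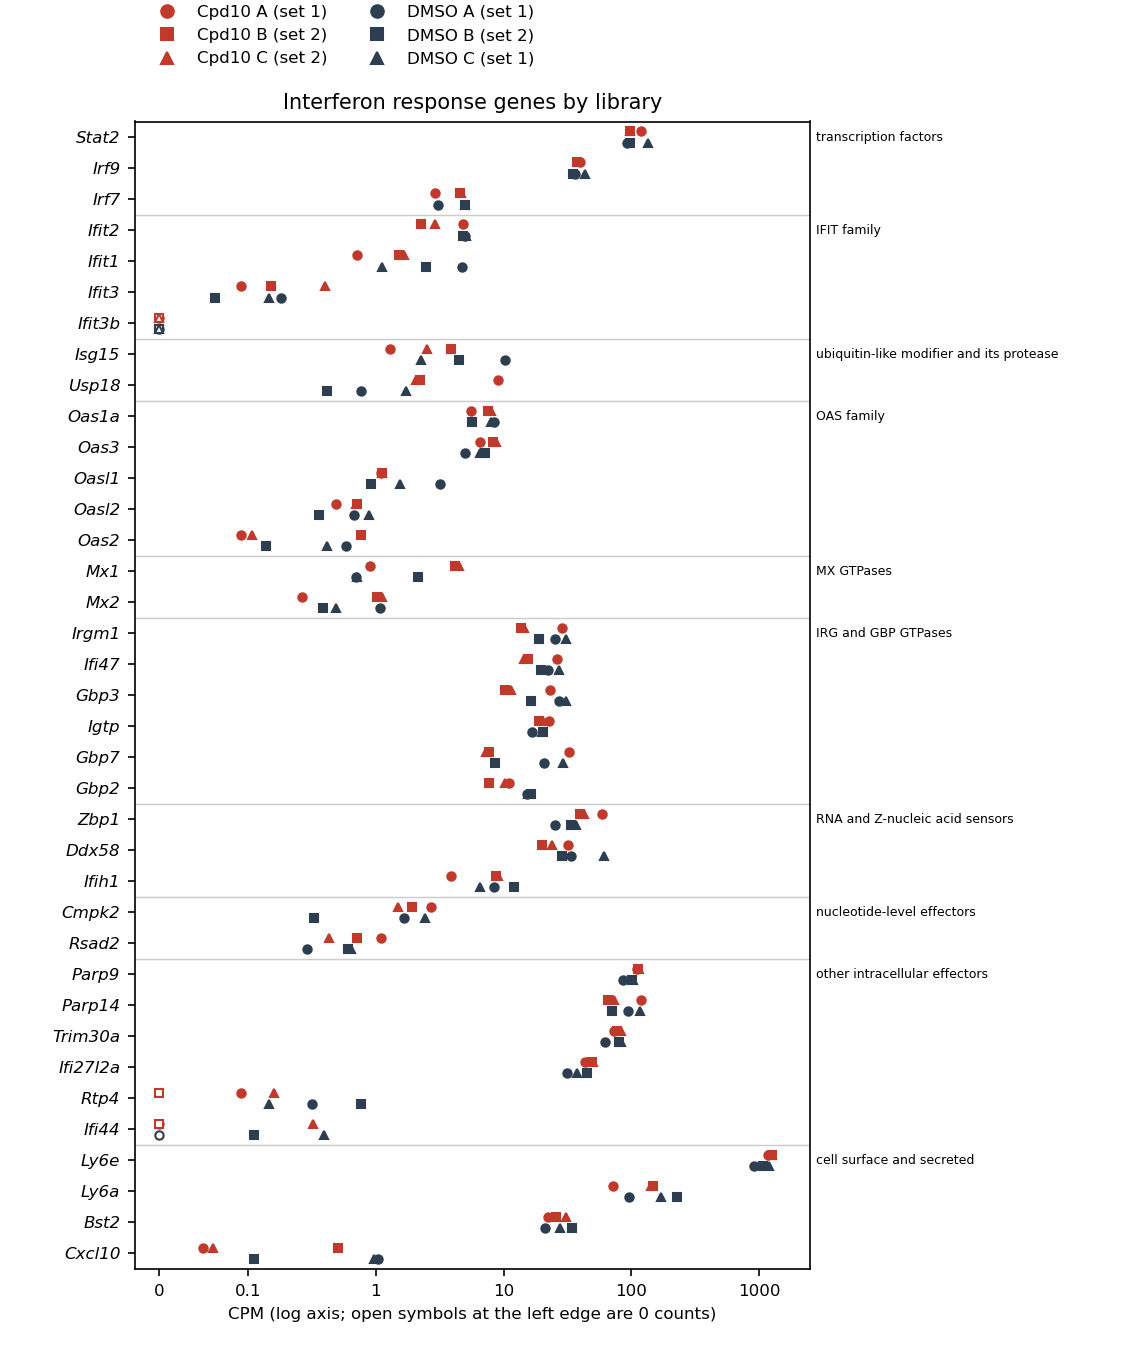
CPM on a log axis of each of the 37 members, grouped by role, with Cpd10 libraries in red above DMSO libraries in dark blue; shapes give the replicate letter and open symbols at the left edge are 0 counts. Ly6e sits between 910 and 1267 CPM, the IRG and GBP GTPases between about 7 and 33 CPM, and Ifit3b at 0 in every library.

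No member passed the test of Cpd10 against DMSO. Of the 37 members 33 had enough counts to be tested, and 0 of 33 passed edgeR's quasi-likelihood test at a Benjamini-Hochberg adjusted p under 0.05 over all 15136 tested genes, where 56 genes (0.37%) did. An unadjusted p under 0.05 held for 3 of the 33 (9.09%), beside 8.39% of all tested genes: 2 higher (3.86% of all) and 1 lower (4.53% of all). Limma-voom called 0 members (0.304% of all tested genes) and DESeq2 called 1, Usp18, which was higher (1.42% of the 25082 genes it fitted were called, 0.817% higher). The Cpd10 libraries did not overlap the DMSO libraries in 5 of the 33 members (15.2%), beside 14.6% of all tested genes: 3 were higher (7.31% of all) and 2 lower (7.32% of all). These shares are near their backgrounds. The median log2 fold change of the 33 was -0.081, beside -0.0012 for all tested genes, with 20 members below 0 and 13 above; without DMSO C or without Cpd10 A the median turned to 0.066 and 0.034.

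Usp18, which removes the ubiquitin-like modifier ISG15 from proteins and blocks the type I interferon receptor, was higher in every Cpd10 library than in any DMSO library. It was at 9.01, 2.23 and 2.08 CPM in Cpd10 A, B and C, against 0.761, 0.413 and 1.73 CPM in DMSO A, B and C. The groups did not overlap, but Cpd10 A stood far above the other libraries, and Cpd10 C was close to DMSO C. The log2 fold change was 2.19 (SE 0.76, adjusted p = 0.481 by edgeR, GRCm38 chromosome 6, 121245906 to 121270917), and 1.16 without Cpd10 A (adjusted p = 0.486). DESeq2 called Usp18 (adjusted p = 0.0312). In the exploratory edgeR fit with the library set as a term, Usp18 rose (2.66, SE 0.38, adjusted p = 0.00143), but without Cpd10 A that call was lost (2.39, adjusted p = 0.306). Within set 1 Usp18 was at 9.01 CPM with Cpd10 and at 0.761 and 1.73 CPM with DMSO. Within set 2 it was at 2.23 and 2.08 CPM with Cpd10 and 0.413 CPM with DMSO. The same order in each set follows from the groups not overlapping, so it adds no support.

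Isg15, the modifier itself, showed the opposite order of means, with overlap (chromosome 4, 156199424 to 156200818; values chosen for display after they were seen). It was at 1.28, 3.85 and 2.50 CPM in Cpd10 A, B and C and at 10.2, 4.46 and 2.24 CPM in DMSO A, B and C. DMSO A was high, and DMSO C alone reached into the Cpd10 range. The fold change of Isg15 on the log2 scale was -1.15 (SE 0.62, adjusted p = 0.718 by edgeR). Without DMSO A it was -0.39, and over all alternatives it ran from -2.28 to -0.39, always below 0.

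The guanylate-binding protein gene Gbp2, whose product coats intracellular pathogens, was lower in all 3 Cpd10 libraries. It was at 11.1, 7.68 and 10.2 CPM in Cpd10 A, B and C, against 15.3, 16.3 and 15.6 CPM in DMSO A, B and C. The DMSO libraries were close together, and every Cpd10 library lay below them. The log2 fold change of Gbp2 (chromosome 3, 142620602 to 142638008) was -0.70 (SE 0.18, adjusted p = 0.248 by edgeR), and with the set term Gbp2 fell (-0.67, SE 0.17, adjusted p = 0.0468). That call ended when DMSO B, DMSO C or any 1 Cpd10 library was left out, with adjusted p from 0.0617 to 0.416.

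Gbp3 and Gbp7, also on chromosome 3, differed between the library sets. Gbp3 was at 22.9, 10.3 and 11.4 CPM in Cpd10 A, B and C and at 27.3, 16.5 and 30.5 CPM in DMSO A, B and C. Gbp7 was at 32.4, 7.71 and 7.27 CPM in Cpd10 A, B and C and at 20.7, 8.51 and 29.1 CPM in DMSO A, B and C. Both genes were lower in the 3 libraries of set 2 than in any library of set 1, and neither passed the test (log2 fold changes -0.73 and -0.30, adjusted p = 0.683 and 0.953 by edgeR). Within each set Gbp3 was lower in every Cpd10 library than in any DMSO library, with -0.46 in log2 fold change under the set term (SE 0.13, adjusted p = 0.0780). Gbp7 was at 0.12 under the set term (SE 0.17, adjusted p = 0.822), without that order. These values were chosen for display after they were seen. In Gbp7 transcripts, 12.7% of the 50-base stretches also occur in other genes, so its reads may be lost or split.

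Irgm1, Ifi47 and Igtp, immunity-related GTPases encoded on chromosome 11, act on membranes that enclose pathogens. Irgm1 was at 28.8, 13.6 and 14.3 CPM in Cpd10 A, B and C and at 25.0, 19.0 and 30.6 CPM in DMSO A, B and C. Ifi47 was at 26.2, 15.4 and 14.4 CPM in Cpd10 A, B and C and at 22.3, 19.5 and 27.2 CPM in DMSO A, B and C. The groups overlapped in both genes, with set 2 below set 1, and the log2 fold changes were -0.39 and -0.30 (adjusted p = 0.844 and 0.8499 by edgeR). Igtp averaged 20.6 ± 2.03 CPM with Cpd10 and 19.0 ± 2.10 CPM with DMSO, a log2 fold change of 0.12 (adjusted p = 0.906). Igtp overlaps Irgm2 on the same strand (2325 counts over the 6 libraries, against 4845 for Igtp). It shares 11.8% of the 50-base stretches in its transcripts with Irgm2, so its reads are uncertain. Of all 6 IRG and GBP members, 5 had a fold change below 0, beside 50.2% of all tested genes, and 0 passed the test. With the set term 4 of the 6 were below 0, beside 52.0% of all tested genes. Likewise 4 of the 6 were lower in every library of set 2 than in any of set 1, beside 17.1% of all tested genes.

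**Figure D3:**
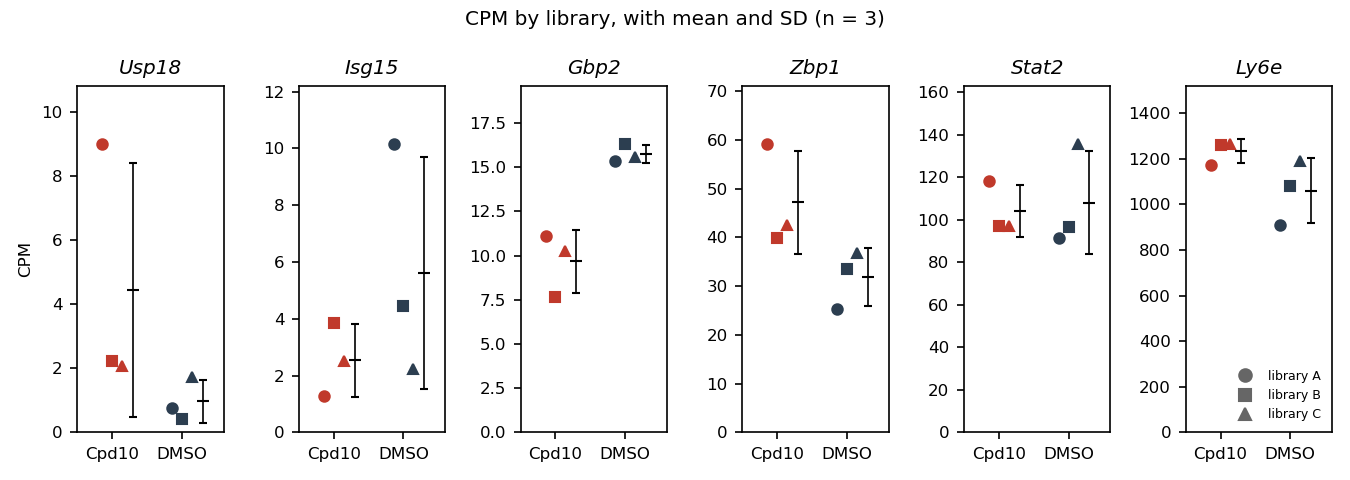
CPM of 6 members by library, on axes that start at 0, with Cpd10 left of DMSO; shapes give the replicate letter, and the bar beside each group is the mean and SD of 3 libraries. Usp18 and Zbp1 were higher and Gbp2 lower in all Cpd10 libraries, while Isg15, Stat2 and Ly6e overlapped between the groups.

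Nucleic acid sensors among the members differed in direction. Zbp1, which recognises Z-form nucleic acid and can trigger necroptosis, was at 59.2, 39.8 and 42.4 CPM in Cpd10 A, B and C, against 25.2, 33.6 and 36.8 CPM in DMSO A, B and C. Every Cpd10 library was above every DMSO library, and Cpd10 A was highest. The log2 fold change of Zbp1 (chromosome 2, 173206612 to 173218923) was 0.57 (SE 0.20, adjusted p = 0.480 by edgeR, and 0.149 with the set term).

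Ddx58, which encodes the RNA sensor RIG-I, was at 31.9, 19.9 and 24.1 CPM in Cpd10 A, B and C and at 33.9, 28.5 and 60.7 CPM in DMSO A, B and C. Cpd10 A lay above DMSO B, and DMSO C was highest. The fold change of Ddx58 on the log2 scale was -0.70 (SE 0.31, adjusted p = 0.620 by edgeR). Ifih1, the gene of the related sensor MDA5, averaged 7.20 ± 2.88 CPM with Cpd10 and 8.98 ± 2.73 CPM with DMSO (log2 fold change -0.32, adjusted p = 0.893).

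Stat2 and Irf9, which encode subunits of ISGF3, were nearly level between the groups. Stat2 was at 118, 97.3 and 96.9 CPM in Cpd10 A, B and C and at 91.7, 96.6 and 136 CPM in DMSO A, B and C, -0.052 in log2 fold change (SE 0.17, adjusted p = 0.961 by edgeR). Irf9 was at 39.5, 37.8 and 38.0 CPM in Cpd10 A, B and C and at 36.3, 35.01 and 43.0 CPM in DMSO A, B and C, 0.012 in log2 fold change (SE 0.12, adjusted p = 0.988). In both genes the DMSO libraries spanned the Cpd10 libraries, with DMSO C highest. Irf7, the factor that amplifies interferon production, averaged 4.02 ± 0.963 CPM with Cpd10 and 4.36 ± 1.13 CPM with DMSO (log2 fold change -0.12, adjusted p = 0.957). Irf9 overlaps Rnf31 on the same strand (13671 counts over the 6 libraries, against 9373 for Irf9), so its reads are uncertain. Irf7 overlaps Phrf1 on the opposite strand, which had 31300 counts over the 6 libraries against 1008 for Irf7, and the sources used here do not say whether counting used the strand.

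Among the other intracellular effectors, the partners Parp9 and Parp14, ADP-ribosyltransferase genes on chromosome 16, were well transcribed. Parp9 was at 111, 112 and 114 CPM in Cpd10 A, B and C, against 85.8, 101 and 103 CPM in DMSO A, B and C. The Cpd10 libraries lay just above the DMSO libraries, with 0.22 in log2 fold change (SE 0.099, adjusted p = 0.622 by edgeR). Parp9 overlaps its divergent partner Dtx3l on the opposite strand, so reads of the pair may be uncertain.

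Parp14 was at 119, 66.0 and 72.9 CPM in Cpd10 A, B and C and at 93.7, 70.6 and 117 CPM in DMSO A, B and C. It was lower in set 2 than in set 1 and overlapped between the treatments (log2 fold change -0.13, adjusted p = 0.946 by edgeR). Trim30a, a TRIM-family regulator of innate signalling, was at 72.8, 77.2 and 82.5 CPM in Cpd10 A, B and C and at 62.5, 79.5 and 82.8 CPM in DMSO A, B and C. Its groups overlapped almost fully (log2 fold change 0.049, adjusted p = 0.955). Ifi27l2a was at 43.2, 49.0 and 49.98 CPM in Cpd10 A, B and C and at 31.3, 44.8 and 37.2 CPM in DMSO A, B and C. Its Cpd10 libraries were mostly higher, with Cpd10 A below DMSO B (log2 fold change 0.33, SE 0.15, adjusted p = 0.629).

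Members whose products act at the cell surface overlapped between the groups. Ly6e was at 1173, 1262 and 1267 CPM in Cpd10 A, B and C and at 910, 1081 and 1191 CPM in DMSO A, B and C (log2 fold change 0.22, SE 0.14, adjusted p = 0.772 by edgeR). Only DMSO C reached into the Cpd10 range. Ly6a, the stem cell antigen also found on activated lymphocytes, was at 71.2, 148 and 142 CPM in Cpd10 A, B and C and at 95.5, 229 and 170 CPM in DMSO A, B and C. Library A was lowest in both groups, and the fold change of Ly6a on the log2 scale was -0.45 (SE 0.39, adjusted p = 0.853). In Ly6a transcripts, 19.0% of the 50-base stretches also occur in other genes, so its reads may be lost or split.

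Ly6a lay on the side of lower levels within each set, with 71.2 CPM (Cpd10) against 95.5 and 170 CPM (DMSO) in set 1, and 148 and 142 CPM (Cpd10) against 229 CPM (DMSO) in set 2. With the set term its log2 fold change was -0.78 (adjusted p = 0.264 by edgeR, but 0.00155 without DMSO A and 0.00204 without DMSO C). Bst2, which encodes tetherin, a protein that holds budding virus at the cell surface, was at 22.2, 25.7 and 30.5 CPM in Cpd10 A, B and C and at 21.2, 34.2 and 27.5 CPM in DMSO A, B and C. The groups overlapped (log2 fold change -0.081, adjusted p = 0.954). Cxcl10, the gene of a chemokine that draws T cells, was near the lower limit, at 0.202 ± 0.265 CPM with Cpd10 and 0.704 ± 0.515 CPM with DMSO (log2 fold change -1.80, SE 1.15, adjusted p = 0.770).

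Low antiviral effectors had few counts and wide errors. In the IFIT family, whose proteins bind foreign RNA, Ifit1 averaged 1.29 ± 0.513 CPM with Cpd10 and 2.78 ± 1.83 CPM with DMSO, with overlap (log2 fold change -1.11, SE 0.59, adjusted p = 0.711 by edgeR). Ifit2 averaged 3.31 ± 1.33 CPM with Cpd10 and 4.97 ± 0.114 CPM with DMSO, and all its Cpd10 libraries were lower, Cpd10 A only just, at 4.80 CPM against 4.84 CPM in DMSO B (log2 fold change -0.58, SE 0.33, adjusted p = 0.733). Ifit3 had 4, 6 and 15 counts in Cpd10 A, B and C and 8, 2 and 6 counts in DMSO A, B and C, too few to test. Ifit3b had 0 counts in every library, a floor (3 counts per library, counting error only) of 0.0661 to 0.0825 CPM. Both genes lie on chromosome 19 and share sequence: 51.2% of the 50-base stretches in Ifit3 transcripts also occur in Ifit3b, so their reads may be lost or split.

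Some proteins of the OAS family make the messenger of the nuclease RNase L. Per kilobase Oas1a and Oas3 were the family's highest members, at 3.72 and 1.11 CPM with Cpd10 and 3.89 and 0.882 CPM with DMSO. Oas3 averaged 7.82 ± 1.19 CPM with Cpd10 and 6.23 ± 1.13 CPM with DMSO, and Oas1a 7.005 ± 1.27 CPM with Cpd10 and 7.34 ± 1.46 CPM with DMSO; Oas1a shares 57.6% of its 50-base stretches with Oas1g. The log2 fold changes of the 5 members Oas1a, Oas2, Oas3, Oasl1 and Oasl2 ran from -0.75 to 0.33, with 0 called and edgeR adjusted p of 0.783 or more.

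Mx1, a GTPase gene against influenza-like viruses, was higher in set 2 than in set 1 (values shown after they were seen). It was at 0.903, 4.18 and 4.47 CPM in Cpd10 A, B and C and at 0.694, 2.15 and 0.706 CPM in DMSO A, B and C. The fold change of Mx1 on the log2 scale was 1.43 (SE 0.71, adjusted p = 0.683 by edgeR), and 0.71 with the set term (adjusted p = 0.370). Mx2, its paralogue, averaged 0.799 ± 0.466 CPM with Cpd10 and 0.649 ± 0.372 CPM with DMSO (adjusted p = 0.952).

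Rsad2, the gene of viperin, which makes a chain-ending nucleotide, and its neighbour Cmpk2, a nucleotide kinase gene, averaged 0.746 ± 0.339 and 2.03 ± 0.620 CPM with Cpd10, and 0.510 ± 0.190 and 1.47 ± 1.06 CPM with DMSO. Fold changes on the log2 scale were 0.55 and 0.46 (adjusted p = 0.886 and 0.913 by edgeR). Rtp4, which restrains flaviviruses, had 4, 0 and 6 counts in Cpd10 A, B and C and 14, 28 and 6 counts in DMSO A, B and C. Ifi44 had 0, 0 and 12 counts in Cpd10 A, B and C and 0, 4 and 16 counts in DMSO A, B and C. Both were too low to be tested.

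**Figure D4:**
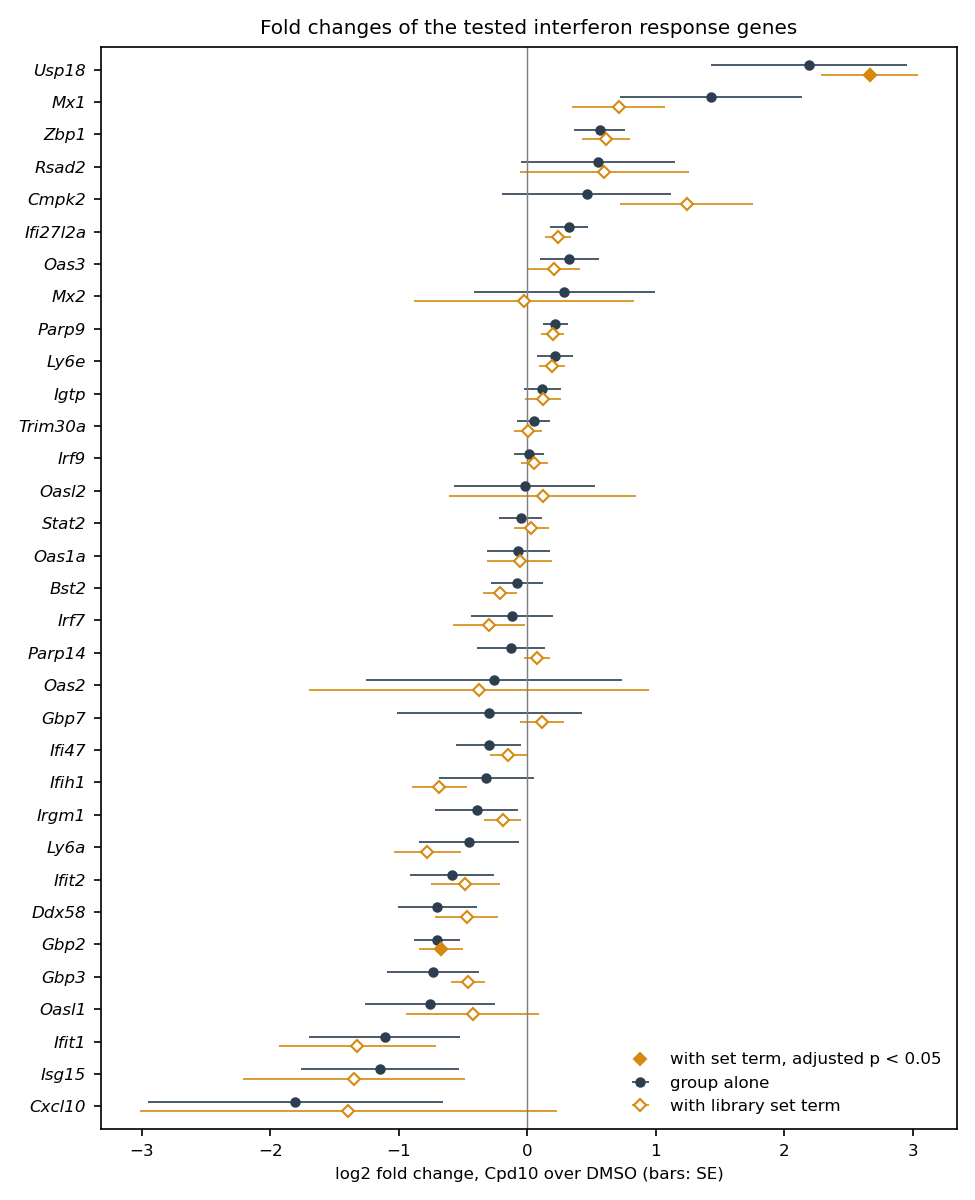
Log2 fold changes of Cpd10 over DMSO for the 33 tested members, with bars of 1 SE; dark circles are the fit with the group alone and orange diamonds the fit with the library set as a term, filled where the adjusted p was under 0.05. Filled diamonds mark Usp18 (2.66) and Gbp2 (-0.67), and no circle passed the threshold.

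With the library set as a term, edgeR called 2 of the 33 members (6.06%), Usp18 higher and Gbp2 lower, beside 599 of all tested genes (3.96%, with 2.32% higher and 1.64% lower). At an unadjusted p under 0.05 that fit held 9 members (27.3%), above the 16% of all tested genes: 5 higher (8.06% of all) and 4 lower (7.95% of all). The median over the 33 was then -0.028, beside -0.011 for all tested genes. Leaving out DMSO A raised the members called to 6, adding Zbp1 higher and Ddx58, Gbp3 and Ly6a lower. The calls over all tested genes rose as well, from 599 to 907. Leaving out Cpd10 A brought the members called to 0 and the calls over all tested genes to 130. Between the sets themselves, 6 members (18.2%) were lower in all 3 libraries of set 2 than in any of set 1, beside 17.1% of all tested genes. They were Gbp3, Gbp7, Irgm1, Ifi47, Ddx58 and Parp14. The reverse order held for 4 members (12.1%), Mx1, Oas3, Ifih1 and Ifi27l2a, beside 18.8% of all tested genes. One share is close to its background and the other under it, and no difference between the members and other genes was tested.

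Other genes of the pathway were also not called. Of 118 genes found in 8 further lists, 83 were tested, 0 reached the edgeR threshold, and 7 (8.43%) had an unadjusted p under 0.05, beside 8.39% of all tested genes. Of these, 1 was higher (1.205%, beside 3.86% of all) and 6 were lower (7.23%, beside 4.53% of all). Groups did not overlap in 15 (18.1%, beside 14.6% of all tested genes), 2 higher (2.41%, beside 7.31%) and 13 lower (15.7%, beside 7.32%). DESeq2 and limma-voom called 0 of them. Their median log2 fold change was -0.081, and -0.037 with the set term. With the set term 5 were called (6.02%, beside 3.96% of all tested genes): Ifi27 higher (1.205%, beside 2.32% of all), and Irf8, Gbp8, Ifitm2 and Ly6d lower (4.82%, beside 1.64% of all). At an unadjusted p under 0.05 that fit held 20 (24.1%, beside 16% of all). Between the sets, 21 (25.3%) were lower in every library of set 2, beside 17.1% of all tested genes. When each of the 6 libraries was left out in turn, the call was kept in 4 fits for Irf8, Ifitm2 and Ly6d, in 2 for Ifi27 and in 1 for Gbp8.

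Irf8, a factor of the B and myeloid lineages that also acts in interferon responses, had the smallest p of the 83. It was at 364, 354 and 343 CPM in Cpd10 A, B and C, against 520, 433 and 513 CPM in DMSO A, B and C. No Cpd10 library reached the DMSO range, and the fold change of Irf8 on the log2 scale was -0.47 (SE 0.11, adjusted p = 0.208 by edgeR, and 0.0136 with the set term). That call was lost without Cpd10 A (adjusted p = 0.388) or Cpd10 C (0.0848). Irf1, a target and effector of interferon gamma, averaged 38.9 ± 4.63 CPM with Cpd10 and 48.2 ± 7.62 CPM with DMSO (log2 fold change -0.31, adjusted p = 0.669).

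The kinase genes Jak1 and Tyk2 differed by -0.20 and -0.15 in log2 fold change (adjusted p = 0.777 and 0.801 by edgeR). Socs1, a feedback inhibitor of JAK kinases, averaged 84.8 ± 6.70 CPM with Cpd10 and 82.8 ± 21.1 CPM with DMSO (adjusted p = 0.977). Irf3 and Tmem173, which encodes the DNA-sensing adaptor STING, differed by -0.020 and 0.043 in log2 fold change (adjusted p = 0.974 and 0.938).

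Of the other inducible GTPases, 6 of 8 tested had a fold change below 0, beside 50.2% of all tested genes, with a median of -0.41, and 0 passed the test. With the set term 5 of the 8 were below 0, beside 52.0% of all tested genes, and the median was -0.23. Of the 8, 4 were lower in every library of set 2 than in any of set 1, beside 17.1% of all tested genes. Gbp8 was at 11.0, 11.0 and 10.6 CPM in Cpd10 A, B and C, against 14.4, 17.7 and 19.7 CPM in DMSO A, B and C. All Cpd10 libraries were below the DMSO libraries, with -0.66 in log2 fold change (SE 0.16, adjusted p = 0.222 by edgeR, and 0.0387 with the set term). That call was kept without DMSO A, and lost when any other library was left out (adjusted p from 0.0830 to 0.363). Gbp9, Gbp10 and Irgm2 differed by -0.45, -1.30 and 0.31 in log2 fold change (adjusted p = 0.680, 0.709 and 0.780). Among 37 other interferon-stimulated genes, Isg20, an exonuclease gene, averaged 11.97 ± 2.26 CPM with Cpd10 and 23.7 ± 11.4 CPM with DMSO (log2 fold change -0.99, adjusted p = 0.465). Tdrd7 had a log2 fold change of -0.48 (adjusted p = 0.529).

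**Figure D5:**
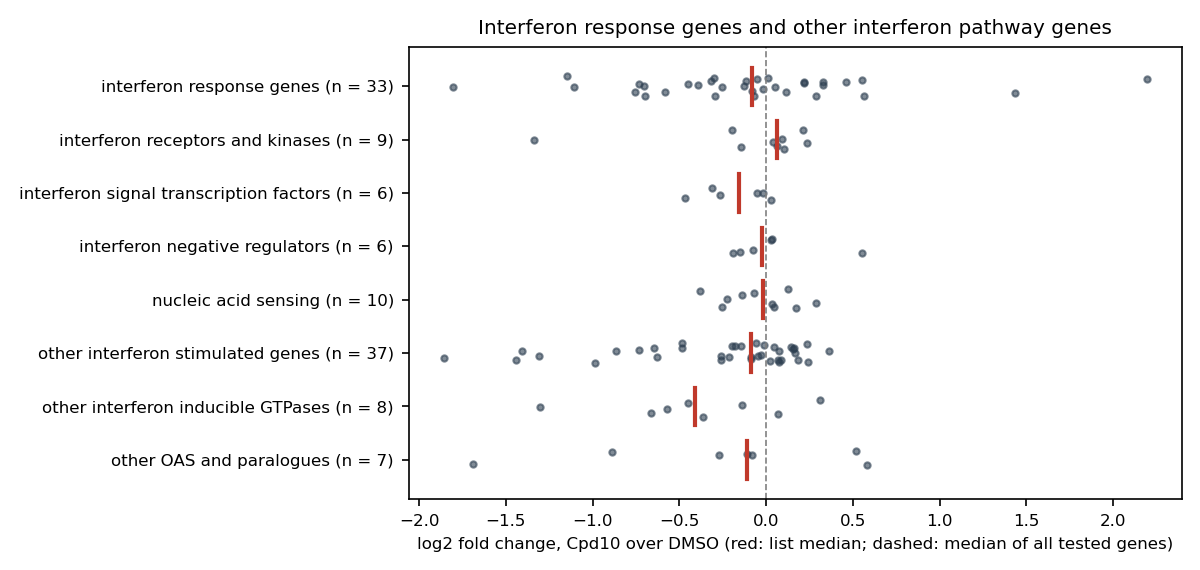
Log2 fold changes of Cpd10 over DMSO for each tested gene (points, spread vertically for display) of the interferon response genes and 7 further lists, with the list median as a red bar and the median of all tested genes as a dashed line. The median was -0.081 for the interferon response genes, -0.41 for the other inducible GTPases (-0.23 with the library set as a term) and 0.064 for receptors and kinases; the interferon genes themselves were too low to be tested.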

How the data were processed

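The authors deposited raw whole-number read counts per gene for 6 libraries in 1 table, made from poly A selected, strand-specific libraries, per the labels' protocols. Per the submitters' processing notes, the tools were STAR 2.7.10a, featureCounts 2.0.6 and DESeq2, with the build GRCm38 (mm10). The sources used here give no strand setting. Symbols and coordinates came from GENCODE M21 (54809 of 54838 identifiers matched). Among counts of 1 to 20, 77.3% to 79.1% were even in each library, so halved counts were also fitted. Reads carry no molecular identifiers named in the labels, so floors cover counting error only. Floors take each count as independent, and with so many even counts they may be too low.

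Counts were tested with edgeR 4.0.16 in R 4.3.3 (TMM, filterByExpr, robust quasi-likelihood fit, group alone, Benjamini-Hochberg over 15136 genes); log2 fold changes are Cpd10 minus DMSO and SE is the fold change over the square root of F. The library set is the 3 against 3 split with most genes at 3 counts or fewer on one side and 50 or more on the other, interferon genes left out. Only 9 genes met this rule for the split used, and 1 for the next, the split by treatment. DESeq2 1.42.0 and limma 3.58.1 (voom), other normalisation and filters, the replicate letter as a block, and each library left out were alternatives. The edgeR procedure was also run on simulated counts without library sets, a run that does not cover the sets seen here. Values per library are given for tested members at a mean of 20 CPM or more, or with an unadjusted p under 0.05, or called with the set term; others are marked. From the pathway lists, genes fixed by name and those with the smallest p are named, except results not reported here. Members and lists were chosen with earlier results of these data known.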

Additional observations from a re-analysis of the deposited data

How the results depend on the processing

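By edgeR, genes called over all tested genes numbered 56, against 194 without the filter, 356 by DESeq2 and 599 with the library set term. Members called numbered 0, against 1 by DESeq2 (Usp18, log2 fold change 2.20) and 2 with the set term, and pathway genes 0, against 5 with the set term. The members' median log2 fold change of -0.081 was -0.028 with the set term. Leaving out 1 library without the set term, edgeR called from 0 (without Cpd10 C, where 843 had an unadjusted p under 0.05) to 100 genes (without DMSO B), 1 without Cpd10 B or DMSO C, 5 without DMSO A and 77 without Cpd10 A. It called 0 members and 0 pathway genes each time, and the members' median ran from -0.126 to 0.0664. With the set term and without Cpd10 A, B or C, or DMSO A, B or C, in that order, it called 130, 343, 225, 907, 437 and 622 genes, 0, 1, 1, 6, 1 and 2 members, and 0, 3, 2, 9, 4 and 5 pathway genes, with members' medians of 0.020, -0.104, -0.093, -0.044, -0.0037 and -0.0086. Of the 33 tested members, 15 kept the sign of their fold change in all 19 alternatives that gave a value and 18 did not; the cause was not tested. With the replicate letter as a block, edgeR called 49 genes and 0 members. The deviations of same-letter libraries from their group means correlated at 0.387 (A), 0.570 (B) and -0.442 (C) across genes. Different-letter pairs ran from -0.716 (Cpd10 A with DMSO B) to 0.588 (Cpd10 A with DMSO C). Every pair within a library set was positive and every pair across sets negative. These values therefore cannot decide whether the letters pair the libraries. With halved counts, chosen after seeing the data, it called 58 genes and 0 members, and with relative log expression normalisation 59 and 0. Members under about 1 CPM rest on few counts, with SE on the log2 scale up to 1.15 (Cxcl10).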
